A study of Rattus norvegicus with 6 samples.

Results

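The genes described here encode the enzymes that let the heart burn ketone bodies and the carriers that bring ketone bodies, lactate and pyruvate across the plasma membrane. The 7 genes were *Oxct1*, *Bdh1*, *Acat1*, *Slc16a1*, *Slc16a3*, *Slc16a7* and *Bsg*, taken from the deposited table by their gene symbols. All 7 were found, each in 1 row, among 28293 genes listed after rows sharing a symbol were summed. Myocardial tissue was sequenced in 3 sham samples and 3 I/R samples, all from male rats labelled with the genotype WT. In the I/R group the left anterior descending coronary artery was tied for 30 min and then reopened for 6 h. The titles of the sham samples carry these times too. The labels name neither strain nor age, and neither they nor the paper's methods say which piece of the heart was taken, nor whether a sample was a single heart, so each value is that of bulk tissue. A lower share of a cell type and less RNA per cell cannot be told apart in such tissue.

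Ketone bodies are made mainly in the liver during fasting and are burned by the heart, which also takes up lactate. They enter through proton-linked monocarboxylate transporters, of which MCT1 is encoded by *Slc16a1*, MCT2 by *Slc16a7* and MCT4 by *Slc16a3*. MCT1 and MCT4 need the immunoglobulin-family glycoprotein basigin, the product of *Bsg*, to reach the plasma membrane. In the mitochondrion, beta-hydroxybutyrate dehydrogenase (*Bdh1*) forms acetoacetate, succinyl-CoA:3-oxoacid CoA transferase (*Oxct1*) activates it, and acetoacetyl-CoA thiolase (*Acat1*) splits the product into acetyl-CoA for the tricarboxylic acid cycle. *Oxct1* is the step that the liver lacks.

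All 7 genes had a promoter in the RefSeq table of the rat build GRCr8, each running from 250 bases before to 50 bases after the gene's start. The build behind the deposited values is not given in the sources used here, so these sequences place the genes and carry no measured value. Capitals mark ACGTG, the core of the hypoxia response element, and CACGTG, the E-box, on either strand. Each E-box contains the core on both strands. The promoter of *Oxct1* is shown because this gene had the largest fold change of the 7. Those of *Slc16a1* and *Bsg* are shown as the promoters of a carrier and its partner that rose together, and that of *Slc16a3* as a carrier whose window holds neither motif. The intervals are chr2:54963714-54964013 on the plus strand, chr2:194812410-194812709 on the plus strand, chr7:10650956-10651255 on the minus strand and chr10:106712078-106712377 on the plus strand, and each sequence reads 5′ to 3′ along the gene.
Oxct1: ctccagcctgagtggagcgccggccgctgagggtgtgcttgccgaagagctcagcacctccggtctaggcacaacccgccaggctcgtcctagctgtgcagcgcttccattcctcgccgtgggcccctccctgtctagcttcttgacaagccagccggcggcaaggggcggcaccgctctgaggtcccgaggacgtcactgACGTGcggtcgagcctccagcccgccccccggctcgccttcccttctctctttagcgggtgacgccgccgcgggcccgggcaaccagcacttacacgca
Slc16a1: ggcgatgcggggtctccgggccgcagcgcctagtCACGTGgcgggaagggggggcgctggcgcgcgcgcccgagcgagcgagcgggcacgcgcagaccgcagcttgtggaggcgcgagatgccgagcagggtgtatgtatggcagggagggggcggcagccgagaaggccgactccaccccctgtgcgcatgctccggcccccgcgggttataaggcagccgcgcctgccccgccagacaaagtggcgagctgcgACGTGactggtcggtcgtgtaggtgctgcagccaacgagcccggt
Bsg: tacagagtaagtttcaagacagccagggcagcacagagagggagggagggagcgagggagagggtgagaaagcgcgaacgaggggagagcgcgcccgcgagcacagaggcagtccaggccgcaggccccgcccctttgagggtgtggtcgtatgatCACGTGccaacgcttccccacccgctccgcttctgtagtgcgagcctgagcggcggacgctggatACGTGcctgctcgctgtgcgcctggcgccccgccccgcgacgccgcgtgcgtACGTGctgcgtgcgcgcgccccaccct
Slc16a3: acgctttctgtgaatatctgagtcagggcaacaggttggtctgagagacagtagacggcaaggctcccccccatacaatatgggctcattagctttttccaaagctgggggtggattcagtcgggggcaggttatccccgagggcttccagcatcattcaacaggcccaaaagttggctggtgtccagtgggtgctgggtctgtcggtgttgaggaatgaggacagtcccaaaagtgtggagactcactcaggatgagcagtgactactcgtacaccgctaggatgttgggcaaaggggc
The core was present in 5 of the 7 promoters (*Oxct1*, *Bdh1*, *Slc16a1*, *Slc16a7* and *Bsg*), against 19.3% of the 33469 promoters of the same length and 25.4% of the 8831 that belong to genes tested here. The E-box was present in 2 of the 7, *Slc16a1* and *Bsg*, against 6.42% and 9.53%. Among the 7, *Slc16a3* and *Slc16a7* did not belong to the genes tested. A match is a stretch of letters and does not show binding.

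The deposited values are FPKM, a measure of fragments corrected for gene length and library size, so levels can be compared between genes. They were compared as log2(FPKM + 0.1) with limma in the 10942 genes with a mean of at least 0.5 FPKM over the 6 samples. P-values were adjusted over all of these genes by the Benjamini-Hochberg method, with a threshold of 0.05. Log2 fold changes are on this scale and are given as I/R minus sham. The two-sided exact permutation test over samples was added, and its smallest possible p is 0.1 with 3 samples against 3. Mitochondrial DNA encodes 13 mRNAs, which held 80.1% to 86.2% of the summed FPKM in the sham group and 61.8% to 71.5% in the I/R group. FPKM is relative to a library total, and whether that total held these mRNAs is not given in the sources used here. The 10942 genes had a median change of 0.29 on the same log2 scale. Whether this shift came from the share of these mRNAs was not tested. Depth relative to sham replicate 1 was 1.18 and 1.14 for the other sham samples and 0.873 to 0.935 for the I/R samples.

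Every member gene was higher in each I/R sample than in each sham sample. The exact permutation test gave p = 0.1 for each of the 7, the smallest p that 3 samples against 3 allow. Groups that did not overlap were common in this direction, in 23.9% of the 19226 genes without a filter on low values (11.7% in the other direction), in 37.2% of those with a mean of at least 0.5 FPKM (13.0%) and in 60.4% of those with a mean of at least 5 FPKM (6.34%). In limma, 5 of the 7 (*Oxct1*, *Bdh1*, *Acat1*, *Slc16a1* and *Bsg*) passed the filter on low values, and these 5 were called higher. Of all genes tested, 25.5% were called higher and 7.36% lower. Calls were more frequent among well-expressed genes, with 50.0% called higher and 4.39% lower of the 3784 genes with a mean of at least 5 FPKM, a level that the same 5 members exceeded. *Slc16a3* and *Slc16a7* lay below the filter. The ratio of the group means ran from 5.60 for *Oxct1* to 1.87 for *Slc16a7*.

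**Figure D1:**
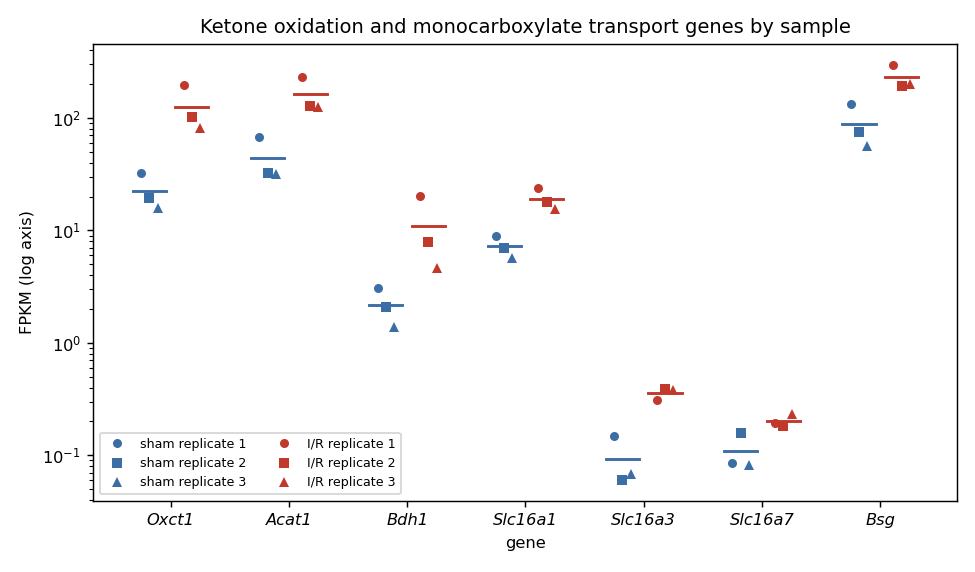
FPKM of each member gene (log axis) in the 3 sham samples (blue) and the 3 I/R samples (red), with symbols for the replicate number and lines at the group means. The red points lie above the blue points for every gene, and *Slc16a3* and *Slc16a7* lie below 0.4 FPKM in every sample.

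*Oxct1* (ENSRNOG00000043094), whose product commits acetoacetate to oxidation, showed the largest fold change of the 7. It stood at 32.5, 19.4 and 15.7 FPKM in sham replicates 1 to 3 and at 195.6, 102.2 and 80.7 FPKM in I/R replicates 1 to 3. The lowest I/R value was 2.48 times the highest sham value. The mean was 22.5 ± 8.82 FPKM in the sham samples and 126.1 ± 61.1 FPKM in the I/R samples (SD, n = 3 each), a ratio of 5.60. Limma gave a log2 fold change of 2.44 with a standard error of 0.38 (adjusted p = 0.0033), larger than the spread between replicates, and 1.46% of the genes tested had a larger one.

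*Acat1* (ENSRNOG00000007862) encodes the thiolase that closes ketone oxidation and also acts in isoleucine breakdown. Its values were 67.7, 32.5 and 31.9 FPKM in the sham samples and 232.0, 128.9 and 124.9 FPKM in the I/R samples. Replicate 1 was the highest of its group in both, and the other sham replicates were nearly equal, as were the other I/R replicates. The group means were 44.0 ± 20.5 and 161.9 ± 60.8 FPKM (SD, n = 3 each), a ratio of 3.68. Limma gave a log2 fold change of 1.91 with a standard error of 0.36 (adjusted p = 0.0056).

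*Bdh1* (ENSRNOG00000001736), the dehydrogenase that starts the oxidation of beta-hydroxybutyrate, was the least abundant of the 3 enzymes and the most variable after reperfusion. It stood at 3.06, 2.10 and 1.38 FPKM in the sham samples and at 20.1, 7.85 and 4.65 FPKM in the I/R samples. The groups did not overlap, but I/R replicate 1 was 4.32 times I/R replicate 3. The mean rose from 2.18 ± 0.844 to 10.9 ± 8.17 FPKM (SD, n = 3 each), with 2.07 ± 0.48 on the log2 scale in limma (standard error, adjusted p = 0.011). Leaving out I/R replicate 1 lowered this to 1.50 (limma, adjusted p = 0.024).

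The carriers differed in level far more than they differed in change. *Slc16a1* (ENSRNOG00000019996), the MCT1 gene, was at 8.90, 7.02 and 5.67 FPKM in the sham samples and at 23.6, 17.9 and 15.6 FPKM in the I/R samples. The highest I/R value was 1.52 times the lowest, against 1.57 times in the sham group, and all I/R values lay above the sham values. The mean rose from 7.20 ± 1.62 to 19.0 ± 4.12 FPKM (SD, n = 3 each), a ratio of 2.64 and 1.39 ± 0.26 on the log2 scale in limma (standard error, adjusted p = 0.0053). *Slc16a1* made up 96.2% to 97.9% of the summed FPKM of *Slc16a1*, *Slc16a3* and *Slc16a7* in the 6 samples.

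*Slc16a3* (ENSRNOG00000036677) encodes MCT4, the carrier typical of lactate-exporting glycolytic cells. Its values were 0.148, 0.0602 and 0.0676 FPKM in the sham samples and 0.313, 0.386 and 0.381 FPKM in the I/R samples. Because FPKM values move in whole steps of 1 fragment, the smallest whole numbers of fragments that fit these values could be found. They were 52, 25 and 27 in the sham group and 96, 127 and 118 in the I/R group. Scaled to depth, the summed fragments gave a ratio of 4.04 (exact 95% interval 3.24 to 5.09, for counting error alone). Without a filter, *Slc16a3* was called higher in limma (log2 fold change 1.29, standard error 0.28, adjusted p = 0.030), where 11.4% of 19226 genes were called higher and 3.32% lower. The pseudocount of 0.1 FPKM lies close to these values and compresses the fold change.

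*Slc16a7* (ENSRNOG00000007839), the gene of the high-affinity carrier MCT2, was at 0.0849, 0.158 and 0.0822 FPKM in the sham samples and at 0.194, 0.182 and 0.231 FPKM in the I/R samples. These values correspond to 10, 22 and 11 fragments and to 20, 20 and 24 fragments. The groups did not overlap, yet the lowest I/R value was only 1.15 times the highest sham value. The depth-scaled ratio was 1.84 (exact 95% interval 1.23 to 2.77, for counting error alone). Without a filter, the log2 difference of 0.55 was not called (standard error 0.25, adjusted p = 0.19, limma).

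*Bsg* (ENSRNOG00000008414), the basigin gene, was the most abundant of the 7 in both groups. It stood at 133.2, 74.2 and 56.5 FPKM in the sham samples and at 297.1, 193.9 and 199.2 FPKM in the I/R samples. Sham replicate 1 reached 2.36 times sham replicate 3, while the lowest I/R value was 1.46 times the highest sham value. The mean rose from 88.0 ± 40.1 to 230.1 ± 58.1 FPKM (SD, n = 3 each), a ratio of 2.62. Limma gave a log2 fold change of 1.45 with a standard error of 0.34 (adjusted p = 0.012), and without sham replicate 2 this was 1.38 and no longer called (adjusted p = 0.056, limma).

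By mean FPKM, the order in the sham group was *Bsg*, *Acat1*, *Oxct1*, *Slc16a1*, *Bdh1*, *Slc16a7* and *Slc16a3*. The ranges of *Bsg* and *Acat1*, of *Acat1* and *Oxct1*, and of *Slc16a7* and *Slc16a3* overlapped between neighbours. Within each sample, however, *Bsg* was above *Acat1* and *Acat1* above *Oxct1* in 6 of 6 samples, whereas *Slc16a7* and *Slc16a3* had no fixed order among the sham samples. In the I/R group the order was the same down to *Bdh1*, where the range of *Bdh1* (4.65 to 20.1 FPKM) now overlapped that of *Slc16a1* (15.6 to 23.6 FPKM), although *Slc16a1* was above *Bdh1* in 6 of 6 samples. The lowest pair changed places by mean, but only the I/R group had a fixed order of the pair from sample to sample. Every I/R value of *Slc16a3* (0.313 to 0.386 FPKM) was above every I/R value of *Slc16a7* (0.182 to 0.231 FPKM).

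Differences between members within a sample do not depend on a common scale factor, apart from the pseudocount, and 7 pairs were compared. The difference *Acat1* minus *Oxct1* on the log2 scale was 1.06, 0.74 and 1.02 in the sham group and 0.25, 0.33 and 0.63 in the I/R group. The I/R values all lay below the sham values, and the difference fell by 0.54 (exact permutation p = 0.1, adjusted p = 0.7 over the 7 pairs). *Bsg* minus *Slc16a1* was 3.52 ± 0.32 in the sham group and 3.58 ± 0.13 in the I/R group (SD, n = 3 each). That is a change of 0.06, less than the spread between replicates (exact permutation p = 0.8, adjusted p = 0.8). *Bdh1* minus *Oxct1* changed by −0.37 and *Slc16a7* minus *Slc16a1* by −0.84, with groups that overlapped (exact permutation p = 0.3 and 0.2, adjusted p = 0.7 for each). Between samples of the same replicate number, *Slc16a7* minus *Slc16a1* fell in 3 of 3 pairs (−0.72, −1.21 and −0.58), as did *Acat1* minus *Oxct1* (−0.81, −0.41 and −0.39). An exact sign-flip test over the pairs gave p = 0.25 for both, the smallest that 3 pairs allow. *Slc16a3* minus *Slc16a1* changed by −0.11 and *Bsg* minus *Slc16a3* by 0.17, both within the spread (exact permutation p = 0.8 and 0.7, adjusted p = 0.8). For these pairs the pseudocount acts on the low gene, and with a pseudocount of 0.01 FPKM the changes took the opposite sign, 0.55 and −0.50. It acts on *Slc16a7* as well. The change of *Slc16a7* minus *Slc16a1* was −0.51 with 0.01 FPKM and −1.17 with 1 FPKM, so its size depends on the pseudocount.

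Of 26 other genes of ketone metabolism and monocarboxylate handling reported here, 23 were in the table and 7 passed the filter on low values. Of these 7, 4 (*Bdh2*, *Ldha*, *Ldhb* and *Ldhd*) were called higher and 3 (*Slc16a6*, *Emb* and *Nptn*) were not called, and the median of the 7 was 1.51 on the log2 scale. For comparison, 25.5% of all genes tested were called higher and 7.36% lower, with a median of 0.29. Among genes with a mean of at least 5 FPKM, 50.0% were called higher.

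**Figure D2:**
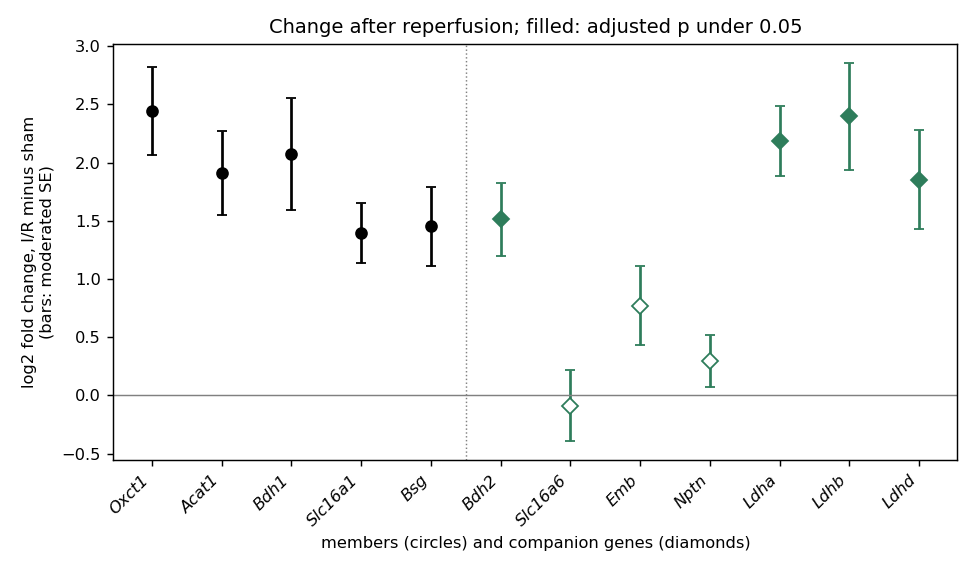
Log2 fold change (I/R minus sham) with the moderated standard error from limma for the 5 member genes tested (circles) and the 7 companion genes tested (diamonds), with filled symbols for an adjusted p under 0.05. The 5 member genes are filled, as are *Bdh2* and the lactate dehydrogenase genes, whereas *Slc16a6*, *Emb* and *Nptn* are open.

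*Bdh2*, a cytosolic dehydrogenase, rose from 1.94 ± 0.768 to 5.63 ± 1.69 FPKM (SD, n = 3 each; log2 fold change 1.51, adjusted p = 0.0074, limma). Rescaled with the mRNAs of mitochondrial DNA left out, its change was 0.76 and not called (adjusted p = 0.058, limma). *Acat2*, the cytosolic thiolase, lay below the filter at 0.173 to 0.295 FPKM in the sham samples and 0.461 to 0.540 FPKM in the I/R samples. *Oxct2a*, a paralog of *Oxct1*, was listed at 0 in 5 of the 6 samples. *Aacs*, the gene of cytosolic acetoacetyl-CoA synthetase, also lay below the filter, with groups that overlapped.

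The lactate dehydrogenase genes, whose products interconvert the lactate and pyruvate that these carriers move, were all called higher. *Ldha*, the form favoured in glycolytic tissue, stood at 43.3, 33.6 and 31.9 FPKM in the sham samples and at 251.3, 135.4 and 130.3 FPKM in the I/R samples (log2 fold change 2.19, adjusted p = 0.0026, limma). *Ldhb*, the heart form, was the more abundant at 379 ± 259 and 1840 ± 808 FPKM (SD, n = 3 each; log2 fold change 2.40, adjusted p = 0.0058, limma). *Ldha* minus *Ldhb* within a sample changed by −0.21, less than the spread between sham replicates (exact permutation p = 0.6, adjusted p = 0.8). *Ldhd*, the mitochondrial enzyme of D-lactate, rose from 5.31 ± 3.39 to 18.3 ± 7.91 FPKM (SD, n = 3 each; log2 fold change 1.85, adjusted p = 0.011, limma). Without sham replicate 2, and likewise after quantile normalization, it was not called (adjusted p = 0.056 for each, limma).

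Of the other SLC16 genes on the list, 9 of 11 were in the table and 1 passed the filter. This was *Slc16a6*, the MCT7 gene, at 0.714 ± 0.104 FPKM in the sham samples and 0.666 ± 0.0967 FPKM in the I/R samples (SD, n = 3 each; log2 fold change −0.09, adjusted p = 0.85, limma). The sodium-coupled carriers *Slc5a8* and *Slc5a12* were listed at 0 in every sample. Among the accessory proteins, embigin (*Emb*), the usual partner of MCT2, was at 1.21 ± 0.415 and 2.14 ± 0.764 FPKM (SD, n = 3 each). It was not called (log2 fold change 0.77, adjusted p = 0.10, limma), but was with the replicate number as a block and on TPM (adjusted p = 0.041 for each, limma). Neuroplastin (*Nptn*), a relative of basigin, was at 9.88 ± 0.927 and 12.3 ± 2.03 FPKM (SD, n = 3 each; log2 fold change 0.30, adjusted p = 0.33, limma). *Hcar2*, the receptor for beta-hydroxybutyrate, lay below the filter. It stood at 0.0408, 0.0519 and 0.00899 FPKM in the sham samples and at 0.0702, 0.622 and 0.672 FPKM in the I/R samples. Its 2 high values were those of I/R replicates 2 and 3, with 57 and 58 fragments against 6 in I/R replicate 1. *Hcar1*, the lactate receptor, was above 0 in sham replicate 3 and I/R replicate 2 alone.

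Cardiomyocyte markers moved with the member genes, though unevenly among themselves. Their summed FPKM was 3226 to 10524 in the sham group and 21184 to 30388 in the I/R group. Of the 7 markers, 5 were called higher and 2 were not called, with none at 0, so the tissue carried the markers of its label. All 7 had a log2 fold change above 0, with a median of 1.92, and *Actc1* rose by 3.79. The mean log2 level of the 7 markers was 8.52, 7.48 and 7.05 in sham replicates 1 to 3 and 10.05, 9.53 and 9.48 in I/R replicates 1 to 3. Within the sham group, *Oxct1*, *Bdh1*, *Acat1*, *Slc16a1* and *Bsg* followed this order of samples. In the I/R group they did so too, except that *Bsg* was slightly higher in replicate 3 than in replicate 2. The share of FPKM in the mRNAs of mitochondrial DNA ran in the reverse order. It was 80.1%, 85.1% and 86.2% in sham replicates 1 to 3 and 61.8%, 70.9% and 71.5% in I/R replicates 1 to 3. Whether the members followed the markers or this share was not tested, nor was the order counted over all genes.

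The members were then set against the mean of these markers in the same sample. On this scale most genes were lower in the I/R group, with a median change of −1.71 over all genes tested, 74.8% called lower and 0.411% called higher in limma, and none of the 5 members tested was called. *Oxct1* lay at −3.25 ± 0.22 in the sham group and at −2.81 ± 0.35 in the I/R group (SD, n = 3 each), a difference of 0.44 with overlapping groups (exact permutation p = 0.2). *Bdh1* and *Acat1* differed by 0.07 and −0.09, less than the spread between replicates (exact permutation p = 1 and 0.5). *Slc16a1* lay at −5.35, −4.65 and −4.52 in the sham group and at −5.49, −5.36 and −5.51 in the I/R group. *Bsg* lay at −1.46, −1.27 and −1.23 in the sham group and at −1.84, −1.93 and −1.84 in the I/R group. Both were lower against the markers in every I/R sample than in every sham sample, by 0.61 and 0.55 (exact permutation p = 0.1, the smallest possible; limma adjusted p = 0.23 and 0.18). For *Slc16a1* the gap was very small, between −5.35 and −5.36. Groups that did not overlap in this direction were found in 77.6% of the genes tested (0.841% in the other direction), so this was shared with most genes. *Slc16a7* was lower by 1.45 without overlap (exact permutation p = 0.1) and *Slc16a3* by 0.71 with overlap (exact permutation p = 0.2), at values where the pseudocount weighs. Without a filter on low values, 80.2% of genes did not overlap and were lower, and 0.479% were higher. *Slc16a1*, *Slc16a3*, *Slc16a7* and *Bsg* were each lower in 3 of 3 pairs of the same replicate number (exact sign-flip p = 0.25). For *Slc16a3* the differences were −0.80, −0.44 and −0.90. The share of all genes lower in every pair was not counted, but genes lower without overlap are lower in every pair. It is therefore at least 77.6% of the genes tested and 80.2% without a filter, so this too was shared with most genes. The part of the markers' rise in that of the member genes was not tested.

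**Figure D3:**
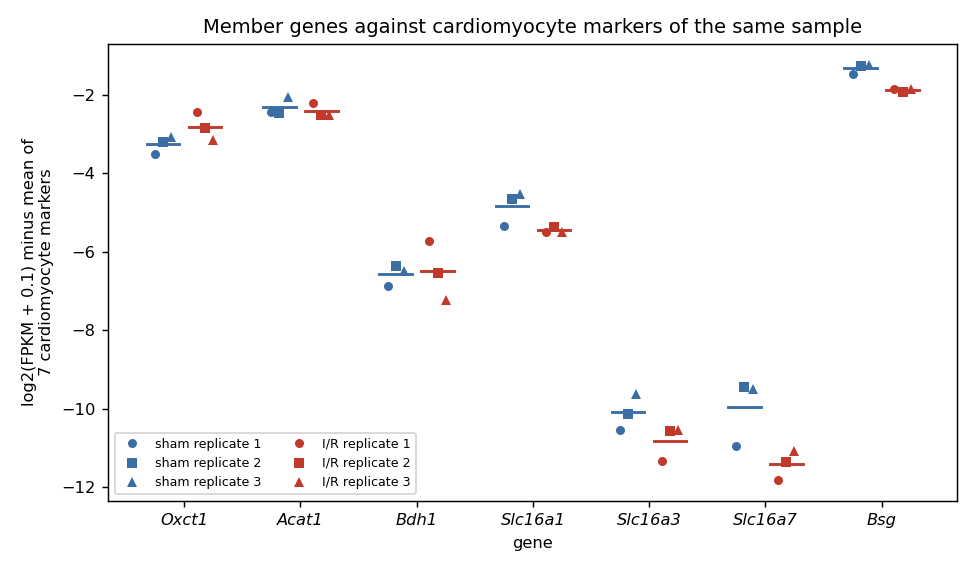
Log2(FPKM + 0.1) of each member gene minus the mean of the 7 cardiomyocyte markers in the same sample, for the 3 sham samples (blue) and the 3 I/R samples (red), with lines at the group means. The red points lie below the blue points for *Slc16a1* (barely), *Slc16a7* and *Bsg*, as for 77.6% of the genes tested, and overlap them for *Oxct1*, *Acat1*, *Bdh1* and *Slc16a3*.

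Markers of other cells that the tissue could hold had smaller median changes. The median of the 7 endothelial markers was −0.21 on the log2 scale, with none called. The 7 fibroblast markers had a median of 0.57 with 2 called higher, and the 6 smooth muscle and pericyte markers a median of 0.66 with 1 called higher and 1 lower. Of the 7 neutrophil and monocyte markers, 6 were tested and 3 were called higher (median 1.31), with a summed FPKM of 52.3 to 67.7 in the sham group and 78.9 to 144.0 in the I/R group. Of the 9 red blood cell markers, 5 were tested and none was called (median −0.28). The part of these cells in the change of *Slc16a3* and *Bsg* was not tested.

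The size of the changes followed the scaling of the samples. *Oxct1*, *Bdh1* and *Acat1* were called higher on the deposited values, on TPM, on values centred by the sample median, on quantile-normalized values and on values rescaled with the mRNAs of mitochondrial DNA left out. Under the last of these, all genes together had a median of −0.46, and the log2 fold changes were 1.66 for *Oxct1*, 1.31 for *Bdh1* and 1.12 for *Acat1*. *Slc16a1* and *Bsg* were then at 0.61 and 0.67 and were not called (adjusted p = 0.067 and 0.064, limma). After quantile normalization, *Bsg* fell to 0.46 and was not called (adjusted p = 0.16, limma), while *Slc16a1* was called at 0.76 (adjusted p = 0.031, limma). Centring on the cardiomyocyte markers left none of the 5 called.

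**Figure D4:**
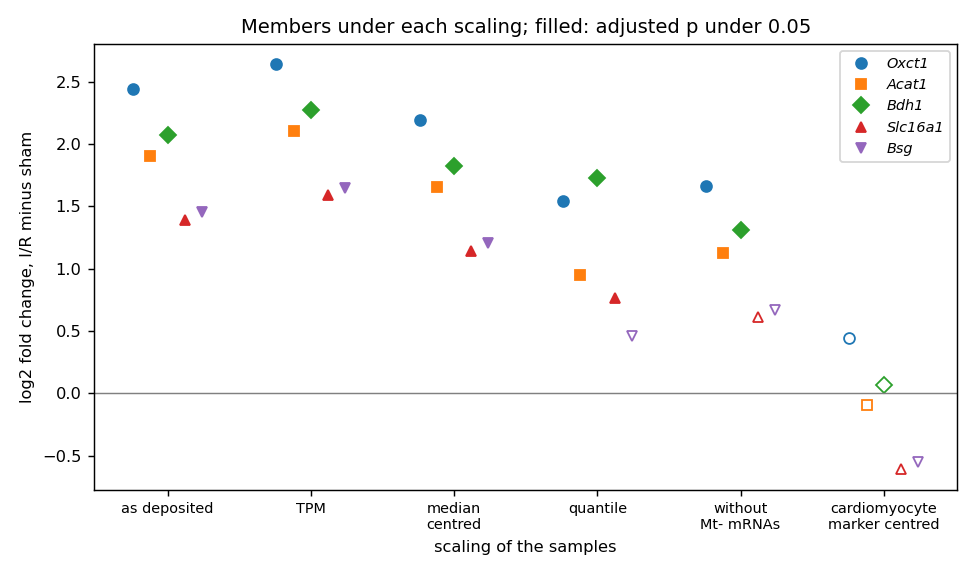
Log2 fold change (I/R minus sham) of the 5 member genes tested under 6 scalings of the samples, from the deposited FPKM at the left to values centred on the cardiomyocyte markers at the right, with filled symbols for an adjusted p under 0.05 in limma. *Oxct1*, *Acat1* and *Bdh1* are filled in the first 5 columns, *Slc16a1* and *Bsg* are open without the mitochondrially encoded mRNAs, *Bsg* also after quantile normalization, and all 5 are open at the right.

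For each member, the genes with the most similar pattern over the 6 samples were found among the genes with a mean of at least 5 FPKM, as the smallest root mean square difference of centred log2 values. They were *Hspb8* (0.086) and *Uqcrfs1* (0.11) for *Oxct1*, *Hsd17b10* (0.072) and *Adssl1* (0.072) for *Acat1*, and *Ogdh* (0.14) and *Klhl31* (0.18) for *Bdh1*. For *Slc16a1* they were *Stoml2* (0.067) and *Ptpmt1* (0.068), and for *Bsg* they were *St3gal5* (0.058) and *Map2k2* (0.073). *Bri3* (0.12) and *Sf3b5* (0.12) were nearest to *Slc16a3*, and *Stx4* (0.094) and *Ece1* (0.097) to *Slc16a7*, whose patterns are flattened by the pseudocount. The larger distances for *Bdh1* go with its spread among the I/R samples.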

How the data were processed

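RNA from the myocardium in 3 sham and 3 I/R samples was sequenced from stranded total RNA libraries. The authors deposited 1 table of FPKM values per gene and sample. The submitters' processing notes name STAR and HTSeq. Their versions, the genome build, the annotation and the total divided by are not given in the sources used here. Columns were matched to samples by name, and rows sharing a symbol were summed. From the deposited FPKM, log2(FPKM + 0.1) was fitted with limma 3.58.1 in R 4.3.3 (lmFit, eBayes with trend) for genes with a mean of at least 0.5 FPKM, with Benjamini-Hochberg adjustment. Exact permutation tests used scipy 1.17.1. The fit was tested on simulated data.

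The labels do not say that the samples of a group came from separate animals, so p-values measure the spread between these samples, which may be technical. Same-numbered sham and I/R samples deviated together from their group means (correlations across genes of 0.20, 0.12 and 0.12). Sham replicate 3 with I/R replicate 2 also gave 0.12, and the other differently numbered combinations were negative (−0.19 to −0.02). The correlations therefore do not settle the pairing of replicates 2 and 3, and the labels state none. The main fit and the exact permutation tests used no pairing. As an alternative, the numbers were taken to pair the samples, and a fit with the replicate number as a block was made. An exact sign-flip test over the pairs was added after the data were seen. The paper's methods state no block.

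Absolute depth is unknown. The 293 genes that averaged below 0.05 FPKM, where single fragments show as steps, gave the relative depth. Fragment numbers are the smallest whole numbers in the ratio of FPKM times relative depth (tolerance 0.02), and true counts may be a multiple. Promoters are RefSeq sequences of GRCr8.

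The member genes, the companion list and the marker lists were chosen with earlier results of these data known. Named are the members, companion genes that passed the filter, and for each member the 2 genes of most similar pattern. *Acat2*, *Oxct2a*, *Hcar1*, *Hcar2* and the other companion genes below the filter were named after their values were seen. Some genes of the companion list are not reported here. Alternatives were other pseudocounts, filters, scalings, limma without the trend, the replicate block, the highest row of each symbol, and leaving out each sample.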

Additional observations from a re-analysis of the deposited data

How the results depend on the processing

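Centring on the cardiomyocyte markers takes the mean change of those markers from every gene. Under it the log2 fold changes were 0.44 for *Oxct1*, 0.072 for *Bdh1*, −0.092 for *Acat1*, −0.61 for *Slc16a1*, −0.55 for *Bsg*, −0.71 for *Slc16a3* and −1.45 for *Slc16a7*, with 0 members called higher. The companion genes *Bdh2* (−0.49), *Emb* (−1.23), *Ldhd* (−0.15) and *Nptn* (−1.70) also turned negative, and the list had 0 called higher and 2 lower. Over all genes, 45 were higher and 8180 lower. Rescaling with the mRNAs of mitochondrial DNA left out kept 3 members called higher, with *Slc16a1* at 0.61, *Bsg* at 0.67, *Slc16a3* at 0.83, *Slc16a7* at 0.085 and *Nptn* at −0.48, and gave 793 genes higher and 2857 lower. Quantile normalization gave 0.46 for *Bsg* and −0.37 for *Nptn*, with 1441 genes called higher and 1559 called lower. Median centring put *Slc16a7* at 0.30 and called 1554 genes lower. TPM gave 504 lower and 0.085 for *Slc16a6*. A mean of at least 5 FPKM gave 166 lower. Of all calls, 77.6% were higher as deposited, 87.3% with TPM, 56.5% after median centring, 48.0% after quantile normalization, 21.7% without the mRNAs of mitochondrial DNA and 0.547% after centring on the cardiomyocyte markers. All genes together had a median change of 0.29 as deposited and of 0.48, 0.04, −0.02, −0.46 and −1.71 under these 5 scalings.

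The pseudocount moved the low carriers. With 1 FPKM, *Slc16a3* was at 0.32 and *Slc16a7* at 0.12, and with 0.01 FPKM at 1.95 and 0.89. With 0.01 FPKM, *Slc16a3* minus *Slc16a1* was 0.55 and *Bsg* minus *Slc16a3* was −0.50. With no filter, *Slc16a3* was called at 1.29. With the replicate number as a block, 3085 genes were higher and 895 lower and the adjusted p of *Oxct1* was 6.8e-05 (limma), and among the members and companion genes tested the block changed the call of *Emb* alone. *Slc16a3* and *Slc16a7* were not in that fit.

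With each sample left out, the log2 fold changes ran from 2.08 to 2.74 for *Oxct1*, 1.50 to 2.54 for *Bdh1*, 1.62 to 2.26 for *Acat1*, 1.23 to 1.55 for *Slc16a1* and 1.18 to 1.80 for *Bsg*, with 4 to 5 members called. Over all genes, 1528 to 2557 were higher and 309 to 881 lower. *Slc16a6* ran from −0.20 to 0.0033. *Bsg* minus *Slc16a1* ran from −0.053 to 0.24, *Bsg* minus *Slc16a3* from −0.11 to 0.32, *Ldha* minus *Ldhb* from −0.60 to 0.017, and *Slc16a3* minus *Slc16a1* from −0.27 to 0.14. The causes were not tested.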
